A study of Mus musculus with 12 samples.

Results

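The genes described here encode the proteins of the mitochondrial ribosome, and they were taken from the deposited gene table of BV2 cells as every gene whose name starts with Mrpl or Mrps followed by a digit. This rule gave 78 genes of the 21834 in the table, and 77 of them passed the filter of at least 0.5 CPM, the count scaled to a common library size, in at least 3 libraries, among 11626 genes tested. Each of the 77 reached 0.5 CPM in all 12 libraries. Mrpl53 did not pass: it had 0 counts in every library, which by sampling alone allows up to 3 counts per library. Mrpl53 shares bases on the same strand with the gene Gm42688, which had only 10 to 30 counts per library. Whether reads of Mrpl53 were left uncounted, or some counted to Gm42688, was not tested, so the 0 counts do not show that Mrpl53 is silent.

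BV2 cells are mouse microglia made immortal for culture. The study stably expressed 1 short hairpin RNA against Anxa2 (shAnxa2) or a control hairpin (shCtrl) from a lentivirus under puromycin selection, and asked what loss of Annexin A2, a membrane-binding protein, does to the cells' transcriptome. Cells of each line were left untreated (CTRL) or taken through oxygen-glucose deprivation and reoxygenation (OGDR in group names, OGD/R otherwise), a culture model of ischemia and reperfusion. The labels give 4 h in 1% oxygen and glucose-free medium followed by 12 h of reoxygenation, while the study's methods give a longer reoxygenation. RNA was sequenced from 3 replicates in each of the 4 groups, shCtrl-CTRL, shCtrl-OGDR, shAnxa2-CTRL and shAnxa2-OGDR, so that both shAnxa2 groups carried the Anxa2 hairpin and both shCtrl groups the control hairpin.

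The mitochondrial ribosome, or mitoribosome, translates the few messages that mitochondrial DNA still encodes, all of them subunits of the oxidative phosphorylation (OXPHOS) complexes. Its RNAs come from mitochondrial DNA, but all of its proteins are encoded in the nucleus, made in the cytosol and imported. Some have a counterpart in bacterial ribosomes and others were added during the evolution of mitochondria, and the same division runs through the large subunit, which joins amino acids, and the small subunit, which reads the message. In microglia, as in other cells, the mitoribosome sets how much of the mitochondrially encoded part of the respiratory chain can be made. By the current nomenclature, 29 of the 78 genes encode large-subunit proteins with a bacterial homologue, 22 large-subunit proteins specific to mitochondria, 16 small-subunit proteins with a bacterial homologue and 10 small-subunit proteins specific to mitochondria. Despite their names, Mrps30 and Mrps18a belong to the large subunit, and Mrps36 encodes a component of the oxoglutarate dehydrogenase complex rather than a ribosomal protein.

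Libraries were grouped by their titles, because the label that names the cells as wild type or knockdown follows the treatment and contradicts the titles. Total counts ranged from 19521877 to 27288843 per library. Anxa2 followed the hairpins of the titles. It read 164.5 to 176.6 CPM in shCtrl-CTRL and 250.8 to 294.5 in shCtrl-OGDR. In shAnxa2-CTRL it read 34.9 to 44.4 CPM and in shAnxa2-OGDR 18.2 to 20.6. These levels bear on the hairpin of a library and not on its treatment. Which libraries of a line had OGD/R rests on the names given to them and was not tested. Over all genes tested, 307 differed by at least 1 on the log2 scale between shAnxa2-OGDR and shCtrl-CTRL, and 395 between shAnxa2-CTRL and shCtrl-OGDR. After OGD/R 817 did so in shCtrl and 459 in shAnxa2 cells. Between the lines the numbers were 688 untreated and 1203 after OGD/R. The reason why groups unlike in both line and treatment lay nearest was not tested. All 10 microglial markers passed the filter, with a summed level of 1150 to 1500 CPM, although Tmem119, P2ry12, Cx3cr1, Aif1 and Fcrls had group means of only 0.312 to 10.3 CPM. None of 5 neuronal and none of 4 fibroblast markers passed, 1 of 5 astrocyte and 2 of 5 oligodendrocyte markers did, and the endothelial list summed to 140.0 to 220.0 CPM through Flt1, lowest in shCtrl-OGDR. Their part in the results below was not tested. Replicate 1 of shAnxa2-OGDR stood apart with 3394 CPM of Lars2, against at most 111.5 CPM in the other libraries. No sequencing batch is named, so batch and group cannot be told apart, and in bulk RNA fewer cells of a kind and less RNA per cell cannot be told apart either. The study describes the replicates as biological, each made of technical replicates of RNA, and the labels do not say whether they were separate cultures of the 1 line, so p-values measure the spread between these libraries.

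After OGD/R, most members that were called were lower in shCtrl cells, and most that were called were higher in shAnxa2 cells. In shCtrl cells 31 members were lower and 15 higher, whereas in shAnxa2 cells 33 were higher and 9 lower. Differences were called at an adjusted p under 0.05 in the quasi-likelihood test of edgeR, adjusted by Benjamini-Hochberg over all genes tested. Among all genes tested, 31% were lower and 32.4% higher in shCtrl cells, against 40.3% and 19.5% of the members, while in shAnxa2 cells 28.2% of all genes were higher and 26.8% lower, against 42.9% and 11.7% of the members. The median log2 fold change of the members was -0.10 in shCtrl cells and 0.12 in shAnxa2 cells, and that of all genes was 0.00 in both. Changes were small throughout: log2 fold changes ran from -0.86 to 0.51 in shCtrl cells and from -0.59 to 0.67 in shAnxa2 cells, so that no member doubled or halved.

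Counting libraries instead of tests gave the same picture. All 3 libraries lay below all 3 controls for 34 members and above them for 16 in shCtrl cells, against 33.3% and 34.7% of all genes. In shAnxa2 cells all 3 OGDR libraries lay above the controls for 34 members and below them for 10, against 30.1% and 28.8% of all genes.

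**Figure D1:**
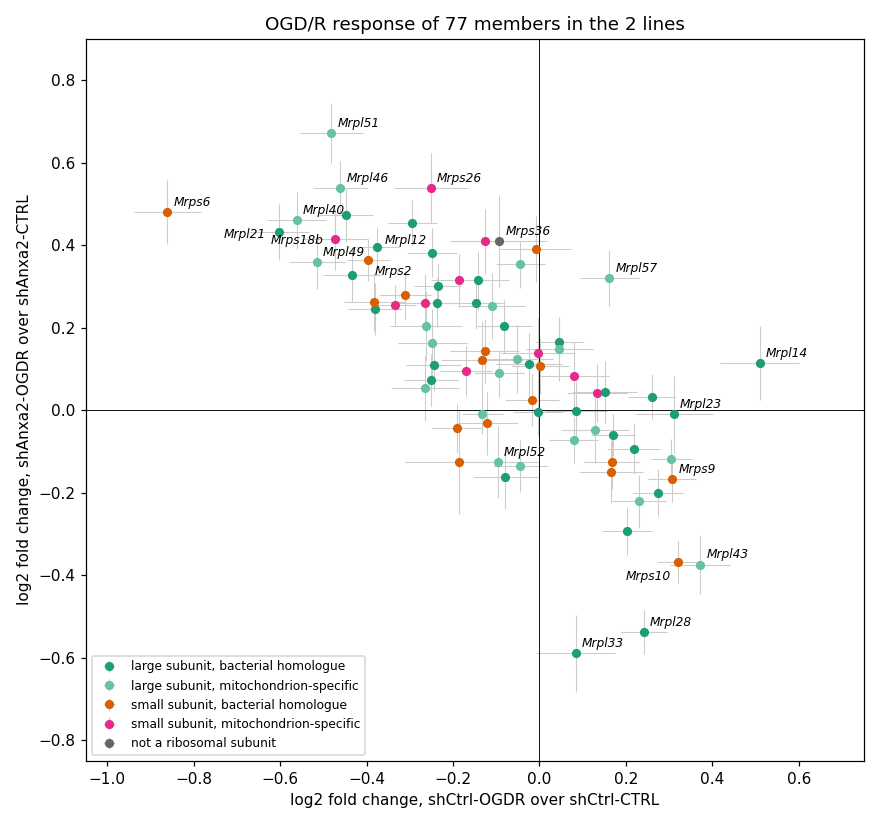
Log2 fold change after OGD/R in shCtrl cells (horizontal axis) and in shAnxa2 cells (vertical axis) for the 77 members tested, each point 1 gene coloured by class, with bars of 1 standard error. The upper left part holds the members lower in shCtrl and higher in shAnxa2 cells, from Mrps6 at -0.86 and 0.48 to Mrpl51 at -0.48 and 0.67.

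The largest group, 24 members or 31.2% of those tested, was both lower in shCtrl and higher in shAnxa2 cells, a pair of calls made for 22.4% of all genes. It held 15 large-subunit and 9 small-subunit genes. The line-by-OGD/R interaction, which tests whether the response differed between the lines, was called for all 24. Opposite calls in the same fit made this nearly certain, so it adds no separate result. The reverse pattern, higher in shCtrl and lower in shAnxa2, was called for 8 members (10.4%), against 22% of all genes. Mrpl57, named after its values were seen, was the 1 member higher in both lines (edgeR, adjusted p = 0.0455 in shCtrl cells), no member was lower in both, and 22 (28.6%) were called in neither, against 26.7% of all genes. Leaving out each library in turn gave 21 to 24 members in the larger pattern and 6 to 8 in the reverse. Without the library with high Lars2 there were 23 and 6. No member was higher in both lines under 7 alternatives, which were median-of-ratios factors, DESeq2, and leaving out shCtrl-CTRL replicate 2 or 3, shCtrl-OGDR replicate 1 or 3, or shAnxa2-OGDR replicate 1.

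Mrps6 had the largest change in shCtrl cells and the largest interaction, while in shAnxa2 cells 5 members changed more. It encodes bS6m, a small-subunit protein that in bacterial ribosomes pairs with S18, and lies on chromosome 16 from 91855158 to 91909115, plus strand, in the mm39 coordinates of the table. Its level was 29.7, 26.7 and 27.9 CPM in shCtrl-CTRL and 17.01, 14.12 and 15.26 CPM in shCtrl-OGDR. It was 21.9, 19.9 and 21.7 CPM in shAnxa2-CTRL and 29.4, 29.4 and 29.8 CPM in shAnxa2-OGDR. Every shCtrl-OGDR library was thus below all the others, and the libraries of shCtrl-CTRL and shAnxa2-OGDR overlapped. Mrps6 fell by 0.86 ± 0.08 (SE) on the log2 scale in shCtrl cells (edgeR, adjusted p = 1.08e-09) and rose by 0.48 ± 0.08 in shAnxa2 cells (edgeR, adjusted p = 1.25e-05). Mrps6 shares bases on the same strand with Slc5a3, a sodium/myo-inositol cotransporter gene, which fell by 0.31 in shCtrl cells (edgeR, adjusted p = 0.00333) and rose by 0.26 in shAnxa2 cells (edgeR, adjusted p = 0.0164). How far reads of one were counted to the other was not tested.

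Among large-subunit genes of this pattern, Mrpl51, which encodes a protein specific to mitochondria, had the highest response in shAnxa2 cells. Its libraries read 60.0, 57.2 and 61.7 CPM in shCtrl-CTRL, 43.4, 42.8 and 41.9 in shCtrl-OGDR, 41.4, 53.0 and 53.4 in shAnxa2-CTRL, and 74.6, 77.5 and 83.7 in shAnxa2-OGDR. The shAnxa2-OGDR libraries stood above every other library, and the log2 fold change was -0.48 ± 0.07 in shCtrl cells and 0.67 ± 0.07 in shAnxa2 cells (edgeR, adjusted p = 3.87e-06 and 4.18e-08). Mrpl12 encodes bL12m, the stalk protein to which translation factors bind and which has also been found with the mitochondrial RNA polymerase. It was the most abundant member per base, at 235.0 to 247.4 CPM in shCtrl-CTRL, 185.0 to 187.1 in shCtrl-OGDR, 201.4 to 221.2 in shAnxa2-CTRL and 262.3 to 290.3 in shAnxa2-OGDR. None of these 4 ranges overlapped, and Mrpl12 fell by 0.38 ± 0.05 in shCtrl cells and rose by 0.40 ± 0.05 in shAnxa2 cells, as log2 fold changes (edgeR, adjusted p = 4.36e-07 and 3.68e-07).

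Mrpl21 (bL21m), Mrpl40 and Mrpl49 fell by 0.60, 0.56 and 0.52 on the log2 scale in shCtrl cells. They rose by 0.43, 0.46 and 0.36 in shAnxa2 cells, each with a standard error of 0.06 to 0.07. Mrpl46, whose protein lies in the large subunit, and Mrps11 (uS11m), named after its values were seen, are arranged head to head and share bases on opposite strands of chromosome 7. Mrpl46 read 37.2 to 41.7 CPM in shCtrl-CTRL, 27.6 to 28.8 in shCtrl-OGDR, 27.6 to 29.2 in shAnxa2-CTRL and 41.2 to 42.3 in shAnxa2-OGDR, so the groups fell into a high pair and a low pair. Its log2 fold changes were -0.46 ± 0.06 and 0.54 ± 0.06, and those of Mrps11 were -0.38 ± 0.07 and 0.26 ± 0.07. Since the counting is not stated to use strand, reads from the shared bases cannot be told apart. The same holds for Mrpl49 and Syvn1, which fell by 0.50 and rose by 0.51, and for Mrpl21 and Ighmbp2, which was called in neither line. In all, 25 of the 78 members share bases with another gene of the table, 22 of them on the opposite strand. Among the 53 members without such overlap, 19 were lower and 9 higher in shCtrl cells, and 20 higher and 5 lower in shAnxa2 cells. Of all genes tested, 31% were lower and 32.4% higher in shCtrl cells, and 28.2% higher and 26.8% lower in shAnxa2 cells.

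In the small subunit, Mrps2 (uS2m) repeated the high and low pairs. It read 104.5 to 106.5 CPM in shCtrl-CTRL and 102.8 to 105.5 in shAnxa2-OGDR, against 75.8 to 82.7 in shCtrl-OGDR and 77.7 to 85.7 in shAnxa2-CTRL. Mrps26, a small-subunit protein specific to mitochondria, read 73.0 to 76.5 CPM in shCtrl-CTRL, 60.3 to 68.0 in shCtrl-OGDR, 62.5 to 80.3 in shAnxa2-CTRL and 92.4 to 118.3 in shAnxa2-OGDR. Its rise in shAnxa2 cells was 0.54 ± 0.08 on the log2 scale (edgeR, adjusted p = 8.6e-06). Its fall in shCtrl cells, 0.25 ± 0.08 (edgeR, adjusted p = 0.0123), was lost without replicate 2 of shCtrl-OGDR (adjusted p = 0.0597). Mrps25 was 43.8 to 49.6 CPM in shCtrl-OGDR and 59.9 to 68.3 CPM in shAnxa2-OGDR, and its fall of 0.19 in shCtrl cells (edgeR, adjusted p = 0.0146) was lost without replicate 1 of shCtrl-CTRL (0.0536) or replicate 2 of shCtrl-OGDR (0.0999). Mrpl34 (bL34m) was 79.6 to 83.7 CPM in shCtrl-OGDR and 108.8 to 131.5 CPM in shAnxa2-OGDR. The log2 fold change of -0.15 in shCtrl cells was near the threshold (edgeR, adjusted p = 0.0421) and lost when any of the 6 shCtrl libraries or replicate 2 of shAnxa2-OGDR was left out (adjusted p = 0.0508 to 0.141).

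**Figure D2:**
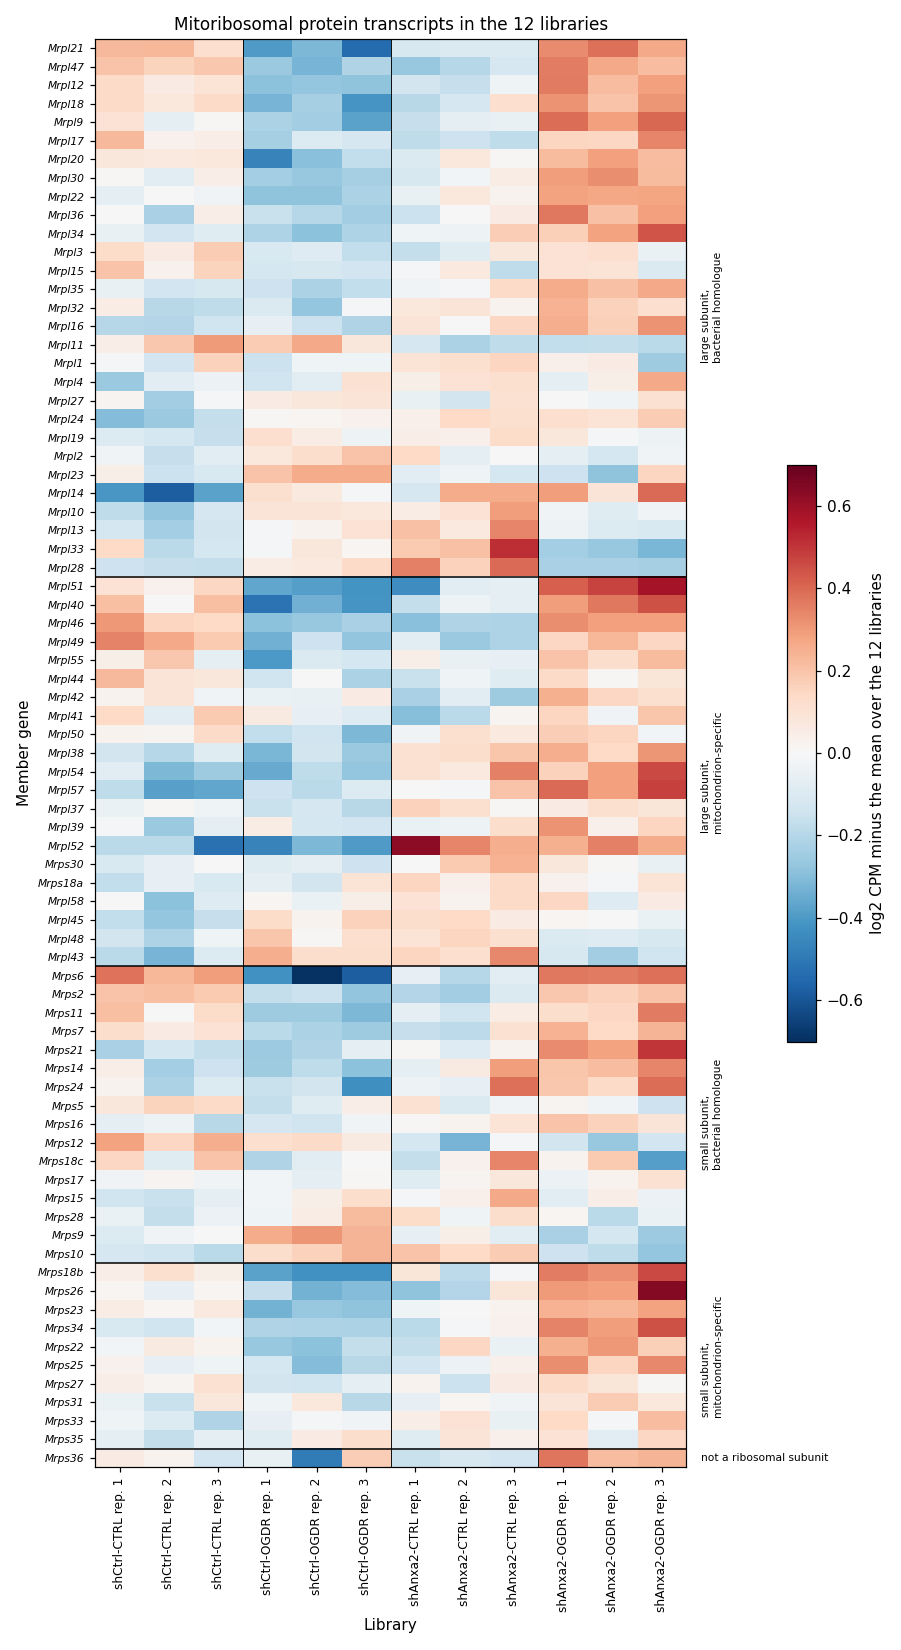
Log2 CPM of the 77 members (rows, grouped by class and ordered within a class by the interaction) in the 12 libraries (columns), as the difference from each gene's mean over the libraries, red above and blue below. Most rows near the top of each class are blue in the 3 shCtrl-OGDR libraries and red in the 3 shAnxa2-OGDR libraries, as for Mrps6 and Mrpl51, and rows near the bottom of the first 3 classes show the reverse, as for Mrpl28 and Mrps10.

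The 8 members of the reverse pattern were Mrpl10, Mrpl13, Mrpl28, Mrpl43, Mrpl45, Mrpl48, Mrps9 and Mrps10. Mrpl28 (bL28m) read 101.5 to 103.3 CPM in shCtrl-CTRL, 118.3 to 125.1 in shCtrl-OGDR, 127.3 to 150.1 in shAnxa2-CTRL and 96.9 to 97.5 in shAnxa2-OGDR. The ranges did not overlap, at log2 fold changes of 0.24 ± 0.05 in shCtrl and -0.54 ± 0.05 in shAnxa2 cells (edgeR, adjusted p = 0.000295 and 9.12e-09). Mrps10 (uS10m) read 78.8 to 82.9 CPM in shCtrl-CTRL and 74.6 to 81.3 in shAnxa2-OGDR, against 97.8 to 105.8 in shCtrl-OGDR and 99.0 to 103.1 in shAnxa2-CTRL, the mirror image of Mrps2. Mrpl43 rose by 0.37 ± 0.07 in shCtrl cells and fell by 0.37 ± 0.07 in shAnxa2 cells (edgeR, adjusted p = 5.37e-05 and 8.41e-05). Twnk, the mitochondrial DNA helicase gene on the opposite strand at the same place, went the other way, falling by 0.30 in shCtrl cells and rising by 0.31 in shAnxa2 cells. Mrps9 (uS9m) rose by 0.31 in shCtrl cells, and its fall of 0.17 in shAnxa2 cells (edgeR, adjusted p = 0.018) was lost without shAnxa2-CTRL replicate 2 or shAnxa2-OGDR replicate 1 or 3 (0.0973, 0.0595 and 0.0569).

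Members that move together can be set beside their promoters. RefSeq windows of 300 bases, 250 before to 50 after the start of transcription in GRCm38.p6, were at hand for 69 of the 78 members and were searched on both strands for 4 exact strings. These were the core of the NRF1 site (GCGCATGCG), the ETS site read by GABPA (CCGGAAG), the YY1 site (AAGATGGCG) and the E-box read by MYC (CACGTG), factors known to act on genes of mitochondrial biogenesis. The ETS core was in 25 member windows (36.2%), against 12.3% of the windows of all genes in the table and 19.7% of those of the genes tested. The NRF1 core was in 7 (10.1%, against 2.54% and 4.09%), the YY1 core in 8 (11.6%, against 2.05% and 3.46%) and the E-box in 5 (7.25%, against 8.08% and 10.2%). No matches of different strings overlapped in a member window. Of the 24 windows of members lower in shCtrl and higher in shAnxa2 cells, 10 held the ETS core and 4 the NRF1 core, and of the 7 windows at hand for the reverse pattern 2 and 1 did. Related lists held some of the strings about as often and others less often. The ETS core was in 35.9% of 64 windows of cytosolic ribosomal protein genes and in 24.2% of 66 windows of nuclear OXPHOS genes. The NRF1 and YY1 cores were in 12.1% and 9.09% of the OXPHOS windows. In the cytosolic ribosomal windows they were in 4.69% and 6.25%. A match is a run of letters and not a measured binding site. The stretches before the start of 4 genes follow, Mrps6 and Mrpl34 from the larger pattern and Mrpl28 and Mrpl43 from the reverse, each at most 200 bases and free of annotated exons, with matches in capitals. They show that an ETS core can stand before a gene of either pattern and be absent from another: Mrpl34 and Mrpl43 hold it, Mrps6 and Mrpl28 hold none of the 4 strings. They lie at chr16:92058086-92058269 (plus strand, with 66 further bases up to the start), chr8:71464726-71464925 (plus), chr17:26123300-26123499 (plus, with 3 further bases up to the start) and chr19:45006443-45006557 (minus), in this order.
Mrps6: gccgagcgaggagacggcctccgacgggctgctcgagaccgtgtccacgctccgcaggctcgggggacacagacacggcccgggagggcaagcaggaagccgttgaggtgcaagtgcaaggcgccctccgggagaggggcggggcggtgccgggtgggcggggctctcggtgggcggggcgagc
Mrpl34: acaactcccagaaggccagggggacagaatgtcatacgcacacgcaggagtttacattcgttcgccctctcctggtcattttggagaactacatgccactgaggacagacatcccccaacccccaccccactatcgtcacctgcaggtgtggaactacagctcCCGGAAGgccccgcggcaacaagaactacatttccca
Mrpl28: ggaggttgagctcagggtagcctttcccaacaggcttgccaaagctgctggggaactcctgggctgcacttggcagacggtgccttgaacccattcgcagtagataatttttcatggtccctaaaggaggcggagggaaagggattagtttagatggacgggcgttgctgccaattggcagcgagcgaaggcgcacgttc
Mrpl43: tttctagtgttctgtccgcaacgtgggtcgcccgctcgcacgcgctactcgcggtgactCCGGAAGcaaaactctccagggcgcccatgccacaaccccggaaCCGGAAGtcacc

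The remaining members were called in 1 line or in neither. Genes called in 1 line alone were not counted over all genes, so the numbers here do not set the members apart. In shCtrl cells 7 were lower without a call in shAnxa2 cells, and 6 were higher, among them Mrpl14 (uL14m), with the largest rise of the family, and Mrpl23, whose bacterial counterpart borders the exit of the nascent chain. Mrpl14 read 22.8 to 26.2 CPM in shCtrl-CTRL and 33.8 to 36.7 CPM in shCtrl-OGDR, a log2 fold change of 0.51 ± 0.09 (edgeR, adjusted p = 3.29e-05). In shAnxa2 cells it read 31.3 to 40.7 CPM untreated and 36.1 to 44.7 CPM after OGD/R, which overlapped. Tmem63b, which shares bases with Mrpl14 on the opposite strand, rose by 0.62 in shCtrl cells and fell by 0.38 in shAnxa2 cells. Mrpl23 rose by 0.31 ± 0.09 on the log2 scale in shCtrl cells and gave -0.01 ± 0.09 in shAnxa2 cells. In shAnxa2 cells alone, 8 members were called higher, Mrpl35, Mrpl42 and Mrps36 among them, and 1 lower, Mrpl33 (bL33m), at 26.4 to 33.3 CPM untreated and 18.6 to 19.7 CPM after OGD/R.

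**Figure D3:**
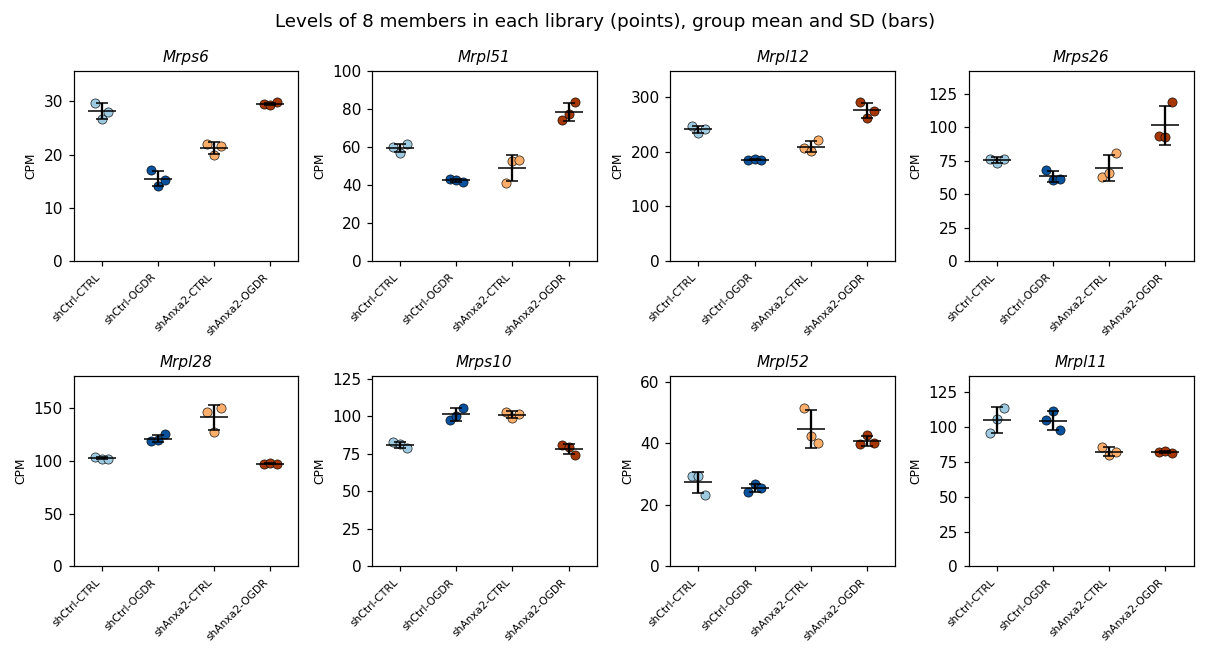
CPM of 8 members in each library (points) with the group mean and SD (n = 3, bars), the vertical axis starting at 0. Mrps6, Mrpl51, Mrpl12 and Mrps26 are lowest in shCtrl-OGDR and highest in shAnxa2-OGDR (Mrps6 close to shCtrl-CTRL), Mrpl28 and Mrps10 show the reverse response, and Mrpl52 and Mrpl11 differ between the lines and not with OGD/R.

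In every class more members were lower than higher in shCtrl cells and more were higher than lower in shAnxa2 cells. Of the 10 small-subunit genes specific to mitochondria, 6 (60.0%) were lower and 0 higher in shCtrl cells, while shAnxa2 cells had 6 higher and 0 lower. The other 4 in each line were not called and ranged up to 0.13 in shCtrl cells, where the median log2 fold change was -0.18, against 0.26 in shAnxa2 cells. The 16 small-subunit genes with a bacterial homologue were lower in 5 and higher in 3 cases in shCtrl cells, and higher in 5 and lower in 2 in shAnxa2 cells. Their 31.2% lower in shCtrl and 31.2% higher in shAnxa2 cells were near the 31% and 28.2% of all genes, while 18.8% higher and 12.5% lower were below the 32.4% and 26.8%. In the large subunit, 12 of the 29 bacterial-type genes were lower and 8 higher in shCtrl cells, with 13 higher and 4 lower in shAnxa2 cells, and of the 21 mitochondrion-specific genes tested 8 were lower and 4 higher, with 8 higher and 3 lower. These are 41.4% and 38.1% lower in shCtrl cells, and 44.8% and 38.1% higher in shAnxa2 cells. No test of a difference between classes was made.

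Summed over the 77 members, the level was 4406 to 4601 CPM in shCtrl-CTRL, 4238 to 4299 in shCtrl-OGDR, 4536 to 4831 in shAnxa2-CTRL and 4928 to 5121 in shAnxa2-OGDR. The 3 shCtrl-OGDR libraries were lowest and the 3 shAnxa2-OGDR libraries highest. The sum of the 10 small-subunit genes specific to mitochondria moved most in proportion, from 418.6 ± 7.2 CPM (SD, n = 3) in shCtrl-CTRL to 368.1 ± 4.36 in shCtrl-OGDR, and from 409.7 ± 17.6 in shAnxa2-CTRL to 498.3 ± 21.9 in shAnxa2-OGDR. For the 16 bacterial-type small-subunit genes the shAnxa2 groups overlapped, at 875.1 to 985.1 CPM untreated and 949.0 to 973.8 CPM after OGD/R.

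**Figure D4:**
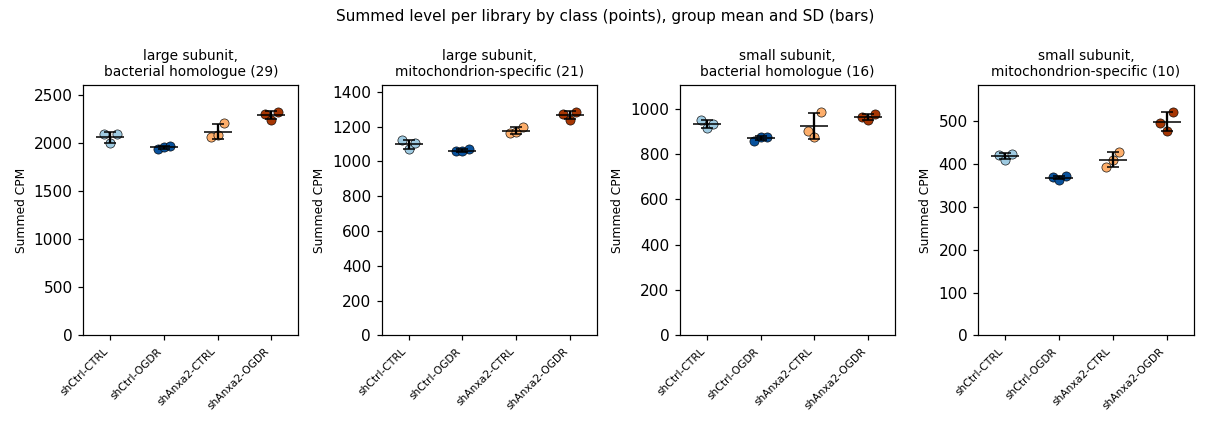
Summed CPM of the members of each class per library (points) with the group mean and SD (n = 3, bars), the vertical axis starting at 0 and the number of genes in brackets. In every class the shCtrl-OGDR libraries are lowest as a group mean and the shAnxa2-OGDR libraries highest.

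Comparing the lines directly, the study's comparison of shAnxa2-OGDR with shCtrl-OGDR had the most members called of the comparisons between groups. Here 47 members (61.0%) were higher in shAnxa2 cells and 12 lower, against 33.8% and 34.2% of all genes, with a median log2 fold change of 0.25. Mrps6 and Mrpl51 led, at 0.93 ± 0.08 and 0.88 ± 0.07 (edgeR, adjusted p = 2.27e-10 and 1.54e-10), followed by Mrpl40 and Mrps18b, both at 0.79. The most negative value was that of Mrps9, -0.47 ± 0.06 (edgeR, adjusted p = 9.41e-08), followed by Mrps10 at -0.37, Mrpl11 at -0.35 and Mrpl43 at -0.34. In untreated cells the lines were close to even, with 23 members higher and 19 lower in shAnxa2 cells, against 29.5% and 29.7% of all genes, and a median of 0.03. The direct comparisons share libraries with the OGD/R comparisons, so the same measurements enter both.

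The line comparisons together separate members whose line difference reversed with OGD/R from members whose line difference had the same sign under both treatments. In 16 members the level was lower in shAnxa2 cells when untreated and higher after OGD/R, a pair of calls made for 16.7% of all genes against 20.8% of the members. Mrpl12, Mrpl46, Mrps2 and Mrps6 were among these. The line difference reversed the other way in 7 members (9.09%), higher in shAnxa2 cells untreated and lower after OGD/R. They were Mrpl10, Mrpl28, Mrpl33, Mrpl43, Mrpl45, Mrpl48 and Mrps10, and the share of all genes with this pair of calls was not counted. In 8 members (10.4%, against 4.61% of all genes) the level was higher in shAnxa2 cells under both treatments. Mrpl52, which encodes a large-subunit protein specific to mitochondria, was the clearest of them: it read 23.3 to 29.4 CPM in shCtrl-CTRL and 24.2 to 26.9 in shCtrl-OGDR, against 40.0 to 51.6 in shAnxa2-CTRL and 39.8 to 42.8 in shAnxa2-OGDR. The lines did not overlap, and the log2 differences were 0.71 ± 0.09 untreated and 0.68 ± 0.09 after OGD/R (edgeR, adjusted p = 3.17e-07 and 4.9e-07). Mrpl14 also belongs here, though its difference after OGD/R, 0.20 ± 0.09, was at the threshold (edgeR, adjusted p = 0.049) and was lost without any 1 of the 6 shCtrl libraries or replicate 1 or 3 of shAnxa2-OGDR (adjusted p = 0.0503 to 0.267). Mrpl11 (uL11m, at the base of the stalk) and Mrps12 were lower in shAnxa2 cells under both treatments, Mrpl11 by 0.35 ± 0.06 on the log2 scale each time.

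The interaction was called for 54 members, 38 of them with a more positive response in shAnxa2 cells and 16 with a more negative one, against 34.9% and 35.1% of all genes. The median was 0.18 on the log2 scale. The 4 members past 1 were Mrps6 at 1.34 ± 0.11, Mrpl51 at 1.15 ± 0.10, Mrpl21 at 1.03 ± 0.10 and Mrpl40 at 1.02 ± 0.10. The most negative were Mrpl28 at -0.78 ± 0.07 and Mrpl43 at -0.75 ± 0.10.

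Comparisons across line and treatment describe how near the groups lay. In shAnxa2-OGDR against shCtrl-CTRL, 36 members were called higher and 4 lower, against 21.5% and 18.4% of all genes. Genes tested of like transcript length, 923 to 2596 bases, shifted the same way here, with 26.8% higher and 12.2% lower, and for the lines untreated with 33.3% and 23.4%. The 4 became 2 without replicate 3 of shCtrl-CTRL or replicate 3 of shAnxa2-OGDR. In shAnxa2-CTRL against shCtrl-OGDR, 33 members were called higher and 5 lower, against 22.1% and 22% of all genes. Genes of like transcript length gave 25.4% and 15.6% there. By group mean, 46 members were highest in shAnxa2-OGDR and 45 lowest in shCtrl-OGDR. Neither these numbers nor the order of the groups was counted over all genes, so they do not set the members apart. The commonest order, from low to high, was shCtrl-OGDR, shAnxa2-CTRL, shCtrl-CTRL and shAnxa2-OGDR, in 21 members. Its middle neighbours often did not differ: for Mrps26, shAnxa2-CTRL at 69.6 ± 9.47 CPM and shCtrl-CTRL at 75.3 ± 2.01 CPM lay within their spread (log2 difference -0.11 ± 0.08, edgeR, adjusted p = 0.265).

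Levels varied more between members than with any condition. The mean over the libraries ranged from 16.7 to 228.2 CPM, with a median of 51.4. Divided by the length of the principal transcript, the levels ran from 7.40 to 173.4 CPM per kilobase, a 23.4-fold range around a median of 35.7. Mrpl12, Mrpl34 and Mrpl42 were highest, at 173.4, 161.7 and 118.0 CPM per kilobase. Mrps17 (uS17m), Mrps25 and Mrpl35 were lowest, at 7.40, 8.97 and 9.17 CPM per kilobase, and these 3 have long principal transcripts of 5061, 6073 and 3721 bases. Mrps17 was also among the 5 members called in no comparison, at 35.34 to 40.35 CPM in all 12 libraries. The members lie on 17 chromosomes, at most 11 of them on 1 chromosome.

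The 3 paralogues of bacterial S18 behaved differently. Mrps18b, whose protein now sits elsewhere in the small subunit, read 25.3 to 26.6 CPM in shCtrl-CTRL, 18.3 to 19.0 in shCtrl-OGDR, 21.6 to 26.1 in shAnxa2-CTRL and 30.7 to 33.9 in shAnxa2-OGDR. It fell by 0.47 ± 0.08 in shCtrl cells and rose by 0.41 ± 0.07 in shAnxa2 cells, with an interaction of 0.89 ± 0.11 (edgeR, adjusted p = 7.35e-08). Mrps18a, the large-subunit paralogue, was not called after OGD/R in either line (log2 fold changes 0.08 and -0.07), and neither was Mrps18c, the bS18m gene (-0.19 and -0.12), measured at 12.7 to 21.0 CPM. Mrps30, the other large-subunit gene with a small-subunit name, gave -0.04 and -0.14, without a call. In untreated cells Mrps18a and Mrps30 were higher in shAnxa2 cells by 0.22 ± 0.06 and 0.20 ± 0.06 (edgeR, adjusted p = 0.00178 and 0.00731), and the call for Mrps30 was lost without shAnxa2-CTRL replicate 3 (0.0619). Mrps36, which is no subunit, was 16.0 to 16.5 CPM in shAnxa2-CTRL and 20.7 to 23.2 CPM in shAnxa2-OGDR, a rise of 0.41 ± 0.11 (edgeR, adjusted p = 0.00332). In shCtrl cells it gave -0.09 ± 0.11.

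Genes for the cytosolic ribosome, which makes the mitoribosomal proteins, were called mostly the other way after OGD/R. Of their 87 genes tested, OGD/R in shCtrl cells gave 51 (58.6%) higher and 6 (6.9%) lower (median log2 fold change 0.20). OGD/R in shAnxa2 cells gave 13 (14.9%) higher and 35 (40.2%) lower (-0.09). Of all genes, 32.4% were higher and 31% lower in shCtrl cells, and 28.2% and 26.8% in shAnxa2 cells. Nuclear genes for OXPHOS subunits went with the cytosolic ribosome, 42 of 81 (51.9%) higher and 4 (4.94%) lower in shCtrl cells (0.17). In shAnxa2 cells 14 (17.3%) of them were higher and 25 (30.9%) lower (-0.10). Genes tested whose principal transcript had a length within the middle quartiles of the members, 923 to 2596 bases, gave medians of 0.03 and 0.01 (4209 genes). In shAnxa2-OGDR against shCtrl-CTRL, however, 49 (56.3%) cytosolic ribosomal genes were higher and 5 (5.75%) lower. There 40 (49.4%) OXPHOS genes were higher and 7 (8.64%) lower, also the majority direction of the members. Of all genes, 21.5% were higher and 18.4% lower in that comparison. No test of a difference between lists was made.

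**Figure D5:**
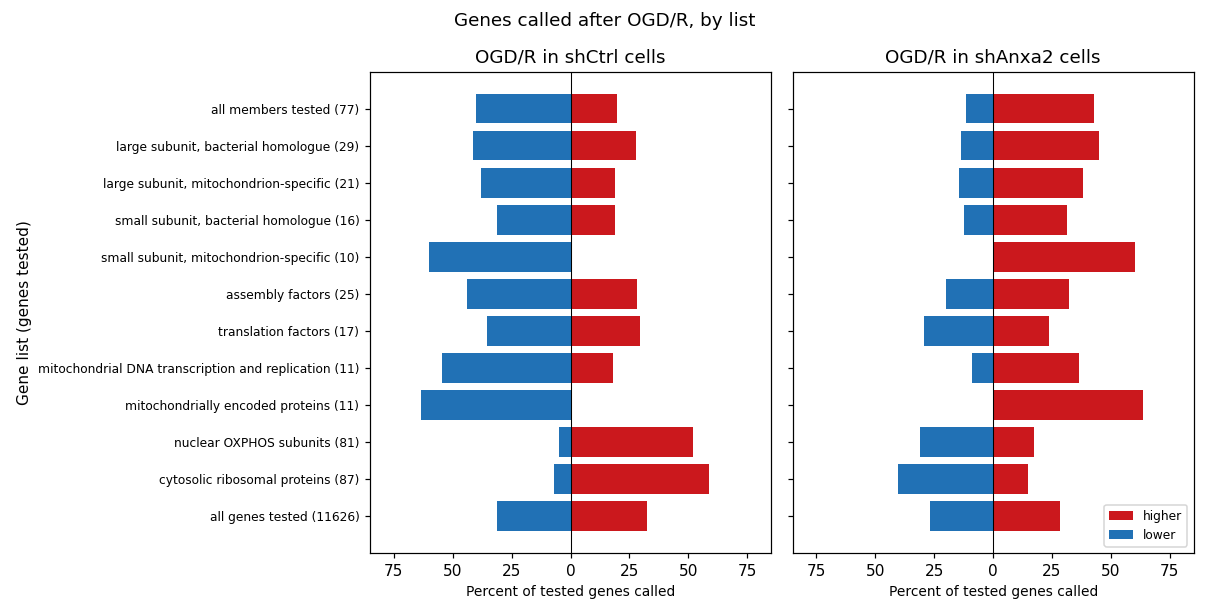
Percent of the genes tested in each list that were called lower (left of 0) or higher (right of 0) after OGD/R in shCtrl cells (left panel) and in shAnxa2 cells (right panel), with the number of genes tested in brackets. Mitoribosomal and mitochondrially encoded genes extend mostly to the left in shCtrl and to the right in shAnxa2 cells, and cytosolic ribosomal and nuclear OXPHOS genes the other way.

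The messages the mitoribosome translates had the same majority direction as the members after OGD/R in each line, though not in every comparison. Of the 13 mitochondrially encoded proteins, 11 passed the filter. In shCtrl cells 7 (63.6%) were lower and 0 higher (median log2 fold change -0.55), against 31% and 32.4% of all genes. In shAnxa2 cells 7 (63.6%) were higher and 0 lower (0.34), against 28.2% and 26.8%. The interaction was called for 9 (81.8%), all positive, against 34.9% of all genes called positive. Among those that passed, mt-Atp6, mt-Atp8, mt-Co2 and mt-Co3 had group means of only 0.534 to 4.485 CPM. Whether their reads were lost in mapping or counting was not tested. mt-Cytb, the cytochrome b message, read 1055 to 1155 CPM in shCtrl-CTRL, 426.5 to 516.7 in shCtrl-OGDR, 523.2 to 544.8 in shAnxa2-CTRL and 827.7 to 968.4 in shAnxa2-OGDR. It fell by 1.21 in shCtrl cells and rose by 0.76 in shAnxa2 cells (edgeR, adjusted p = 5.25e-14 and 5.59e-10), more than any member. mt-Nd2, a complex I subunit, fell by 0.88 and rose by 0.34. Between the lines untreated, 9 of the 11 (81.8%) were lower and 0 higher in shAnxa2 cells (median -0.63), against 29.7% and 29.5% of all genes. The members were 23 higher and 19 lower there. In shAnxa2-OGDR against shCtrl-CTRL 6 (54.5%) mitochondrially encoded genes were lower and 0 higher, against 18.4% and 21.5% of all genes. In that comparison 36 members were higher and 4 lower.

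Subunits that do not carry an Mrpl or Mrps name were mixed. Of 5 tested, 1 was higher and 1 lower in shCtrl cells, against 3 higher and 1 lower in shAnxa2 cells. Ptcd3, a pentatricopeptide repeat protein of the small subunit, followed the main pattern at 153.0 to 164.8 CPM in shCtrl-CTRL, 109.0 to 109.8 in shCtrl-OGDR, 125.2 to 140.5 in shAnxa2-CTRL and 147.9 to 161.4 in shAnxa2-OGDR. It fell by 0.52 and rose by 0.25 (edgeR, adjusted p = 3.93e-09 and 0.00021). Dap3, the GTP-binding protein of the same subunit, rose by 0.24 in shCtrl cells (edgeR, adjusted p = 0.00013) and gave -0.10 in shAnxa2 cells (0.078).

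Genes that build and run the mitoribosome were called in both directions. Of 25 assembly factors tested, 11 (44.0%) were lower and 7 (28.0%) higher in shCtrl cells, against 31% and 32.4% of all genes, while shAnxa2 cells had 8 (32.0%) higher and 5 lower, near the 28.2% and 26.8% of all genes. Fastkd2, an RNA-binding protein needed for the large subunit, fell by 0.64 and rose by 0.36, and Rcc1l, another large-subunit factor, fell by 0.40 and rose by 0.30. Mettl15, which methylates the small-subunit RNA, rose by 0.80 in shCtrl cells and fell by 0.41 in shAnxa2 cells, from only 5.29 to 10.9 CPM, and the pseudouridine synthase gene Rpusd3 rose by 0.74 at 2.24 to 5.79 CPM. Among 17 translation factors the shares were near those of all genes, with 6 (35.3%) lower and 5 (29.4%) higher in shCtrl cells, and 4 (23.5%) higher and 5 (29.4%) lower in shAnxa2 cells. The initiation factor gene Mtif2 and the elongation factor gene Guf1 rose by 0.40 and 0.37 in shCtrl cells and fell by 0.20 and 0.38 in shAnxa2 cells. Trmt10c, a subunit of mitochondrial RNase P, fell by 0.52 in shCtrl cells, and Slirp, partner of the RNA stabilizer Lrpprc, was lower after OGD/R in both lines at 0.256 to 1.81 CPM, a level of few reads.

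Of 11 genes for transcription and replication of mitochondrial DNA, 6 (54.5%) were lower and 2 (18.2%) higher in shCtrl cells, against 31% and 32.4% of all genes. In shAnxa2 cells 4 (36.4%) were higher and 1 (9.09%) lower, against 28.2% and 26.8%. Twnk read 153.8 to 160.0 CPM in shCtrl-CTRL, 121.9 to 132.3 in shCtrl-OGDR, 139.0 to 144.8 in shAnxa2-CTRL and 174.3 to 177.5 in shAnxa2-OGDR, without overlap. Polg2, the accessory subunit of the polymerase, fell by 0.30 in shCtrl cells, and the transcription elongation factor gene Tefm and the single-strand binding protein gene Ssbp1 rose by 0.32 and 0.28 there.

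Regulators of mitochondrial biogenesis gave the widest range. Of 8 tested, shCtrl cells had 2 higher and 2 lower, and shAnxa2 cells 3 higher and 2 lower. Pprc1, a coactivator of the PGC-1 family that works with NRF1, read 160.9 to 179.7 CPM in shCtrl-CTRL, 105.4 to 112.7 in shCtrl-OGDR, 112.1 to 135.9 in shAnxa2-CTRL and 177.8 to 199.6 in shAnxa2-OGDR. It fell by 0.63 and rose by 0.65 on the log2 scale (edgeR, adjusted p = 5.13e-09 and 6.71e-09), the direction of most members. Ppargc1b, of the same family, fell by 0.42 and rose by 0.38. Myc went the other way, from 1.96 to 2.87 CPM in shCtrl-CTRL up to 9.37 to 11.1 in shCtrl-OGDR, and from 7.58 to 8.28 CPM in shAnxa2-CTRL down to 2.28 to 3.54 in shAnxa2-OGDR, with log2 fold changes of 1.99 and -1.42 (edgeR, adjusted p = 4.57e-11 and 6.97e-08). Gabpb1, a partner of GABPA, rose by 0.15 in shCtrl cells and fell by 0.19 in shAnxa2 cells. Whether any of these regulators acts on the members was not tested.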

How the data were processed

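RNA-seq of 12 BV2 libraries, 3 in each of 4 groups, was analysed from the deposited table of counts per gene, which the authors made without normalization. Per the submitters' processing notes, reads were aligned with HISAT2 2.0.4 to mm39. The methods of the study describe RNA-seq of hippocampi with other tools, and the counter used for these cells is not given in the sources used here. The 12 size-factor-scaled columns were not used. Total counts were 19521877 to 27288843 per library, which sets the counting error.

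edgeR 4.0.16 (R 4.3.3) fitted 1 quasi-likelihood model over the 12 libraries, with TMM factors of 0.98 to 1.016, keeping genes that reached 0.5 CPM in 3 or more libraries. The common biological coefficient of variation was 5.35%. CPM in the text use totals times TMM factors. The SE is the log2 fold change over the square root of F. Within groups, counts of replicate pairs differed beyond sampling noise (chi-square per gene 4.02 to 13.3). On simulated counts of 11473 genes for OGD/R in shCtrl cells, 79 of 94 genes changed by 0.5 and 94 of 99 changed by 1 (log2) were called, and 10 unchanged genes. The rule for named genes took, for each of the 4 main comparisons and the interaction, the 4 members per direction with the largest called change (mean of at least 5 CPM), the 3 highest and 3 lowest per kilobase, the member without counts, Mrps36, Mrps30 and the Mrps18 paralogues, and from each list outside the family the 2 per direction with the largest called change in shCtrl cells. Members and lists were chosen with earlier results of these data known. Lengths are those of the APPRIS principal transcript in GENCODE M21 (GRCm38), since the table gives none. Promoters are from RefSeq (GRCm38.p6), 1 window per gene nearest that transcript's start. Alternatives were other size factors, filters, limma 3.58.1 voom, DESeq2 1.42.0, the replicate number as a block, fits of only the groups compared, members without overlapping genes, and leaving out each library. Python 3.11.15 with pandas 2.3.3 and matplotlib 3.10.9 was used.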

Additional observations from a re-analysis of the deposited data

Results flagged for a closer look

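The OGD/R response of 22 named members differed between the lines by the interaction of line and OGD/R (edgeR, adjusted p under 0.05). Over all genes tested the interaction was called more positive for 34.9% and more negative for 35.1%. Members were named in part for the size of this change, so their number does not describe the family. The response was more positive in shAnxa2 cells, on the log2 scale, for Mrps6 (1.34), Mrpl51 (1.15), Mrpl21 (1.03), Mrpl40 (1.02), Mrpl46 (1.0), Mrps18b (0.89), Mrpl49 (0.87), Mrps26 (0.79), Mrpl12 (0.77), Mrps2 (0.76), Mrps25 (0.5), Mrps36 (0.5), Mrpl34 (0.41), Mrpl42 (0.4) and Mrpl35 (0.28). It was more negative for Mrpl28 (-0.78), Mrpl43 (-0.75), Mrps10 (-0.69), Mrpl33 (-0.67), Mrps9 (-0.47), Mrpl14 (-0.4) and Mrpl23 (-0.32), the last of which lost its call without any 1 of 6 libraries. In 16 of the 22 both lines were called, with opposite signs. Of all genes, 22.4% were called lower in shCtrl and higher in shAnxa2 cells, and 22% the reverse. The other 6, Mrpl14, Mrpl23, Mrpl33, Mrpl35, Mrpl42 and Mrps36, were called in 1 line.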

How the results depend on the processing

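In 7 comparisons, no count or median of the members changed direction under any alternative. The 53 members without overlapping genes are fewer by construction. They gave 9 higher and 19 lower for OGD/R in shCtrl cells, and 20 and 5 for shAnxa2. They gave 15 and 10 for the lines untreated, 31 higher after OGD/R, and 24 and 9 for the interaction. The shares of all genes in these comparisons are given above. The median interaction was 0.11 with upper-quartile factors, which moved the median of all genes to -0.08, and 0.15 to 0.26 without 1 library. Members lower in shAnxa2-OGDR than in shCtrl-CTRL numbered 2 to 5 without 1 library. Replicate numbers did not pair the libraries (18 correlations of same-numbered libraries, -0.05 to 0.14). With the replicate block 17 members were higher and 31 lower for OGD/R in shCtrl cells, against 33 and 9 for shAnxa2. Of the named members' calls, 102 were recomputed, none reversed, and 9 lost the threshold under at least 1 alternative. Another 17 values without a call changed sign under some alternative. The depth leaves Slirp, Rpusd3 and mt-Atp8, at few CPM, among the least precise.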
